A study of Mus musculus with 12 samples.

Results

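The 32 genes described here encode enzymes and regulators of sterol and fatty acid synthesis. They were taken by symbol from a list of lipid genes tied to the SREBP transcription factors as targets or regulators. All 32 were found among the 55573 genes of the deposited count table. The 12 strand-specific polyA RNA libraries, read as pairs of 150 bases, came from cortical cultures enriched for astrocytes and prepared from C57BL6/J mouse pups aged 0 to 2 days. The cultures had been shaken and replated at day 7 in vitro and were kept in medium with 10% horse serum. All of them carried a lentivirus for 5 days, with serum-free medium during the first 24 h, and then received PBS or vasoactive intestinal peptide (VIP) for 30 min, followed by 90 min of recovery.

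The 4 groups had 3 libraries each. Control virus with PBS carried pCIG3, a vector in which the CMV promoter drives GFP, and no peptide. Control virus with VIP carried the same vector and received 0.5 µM VIP, a neuropeptide whose receptors raise cAMP. ACREB with PBS and ACREB with VIP carried pCIG3-ACREB, which encodes ACREB, a dominant-negative protein that keeps the transcription factor CREB off its DNA sites, with the same PBS or VIP treatment. The CMV promoter does not restrict expression to astrocytes, and the share of cells that took up the virus is not given in the sources used here. Nothing in the labels says that replicates 1 to 3 of a group come from different cultures or animals. The p-values therefore refer only to the spread among these libraries, and that spread may be technical.

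Sterol synthesis starts from acetyl-CoA, passes through mevalonate, isoprenoids and squalene, and ends at cholesterol. When sterols in the endoplasmic reticulum are low, SCAP escorts SREBP proteins to the Golgi, where they are cleaved, and the released factor switches on genes of the pathway. When sterols are high, the INSIG proteins hold SCAP and SREBP back, so that the pathway is governed by its own product. In the brain, cholesterol is made locally, and astrocytes are known as a main source of sterols and unsaturated fatty acids for other cells.

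Total counts ran from 16571398 to 20529238 per library. All 12 astrocyte markers passed the filter on low counts, with a summed level of 7296 to 8506 CPM, that is counts scaled to library sizes, over the libraries. Markers of other cells were present too: microglia markers summed to 1295 to 3297 CPM and oligodendrocyte lineage markers to 1168 to 1869 CPM. Control PBS library 2 stood apart from the rest, with a score of 81.2 on the leading principal component (38.1% of the variance). The score of ACREB PBS library 2 was 34.6. On the other side lay control VIP library 1 at -29.0 and ACREB VIP library 1 at -28.9. The remaining libraries lay between -17.5 and 7.02. GC content and gene length accounted for 42.5% of the variance across genes in the departure of control PBS library 2 from the median library, and for 20.8% in ACREB PBS library 2. Control PBS library 2 belongs to the VIP contrast with control virus, ACREB PBS library 2 to the VIP contrast with ACREB, and both belong to the ACREB contrast with PBS and to the interaction. The ACREB contrast with VIP holds neither, but it holds control VIP library 1 and ACREB VIP library 1. In these, GC content and gene length accounted for 10.7% and 11.4% of the variance in the departure.

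The 32 lipid genes shared in that departure. In control PBS library 2 their median log2 CPM lay 0.28 above the median of the 12 libraries, against -0.12 to 0.083 in the other 11 libraries. The departure was uneven. GC-poor members such as Elovl6, Idi1 and Hmgcs1 were low there and the GC-rich Mvd was high. Across the 32 genes, Pearson's r between GC content of the longest transcript and the departure was 0.62 in this library, and lay between -0.65 and 0.28 in the other 11. The genes share a library in each such value, so r is only a description.

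**Figure D1:**
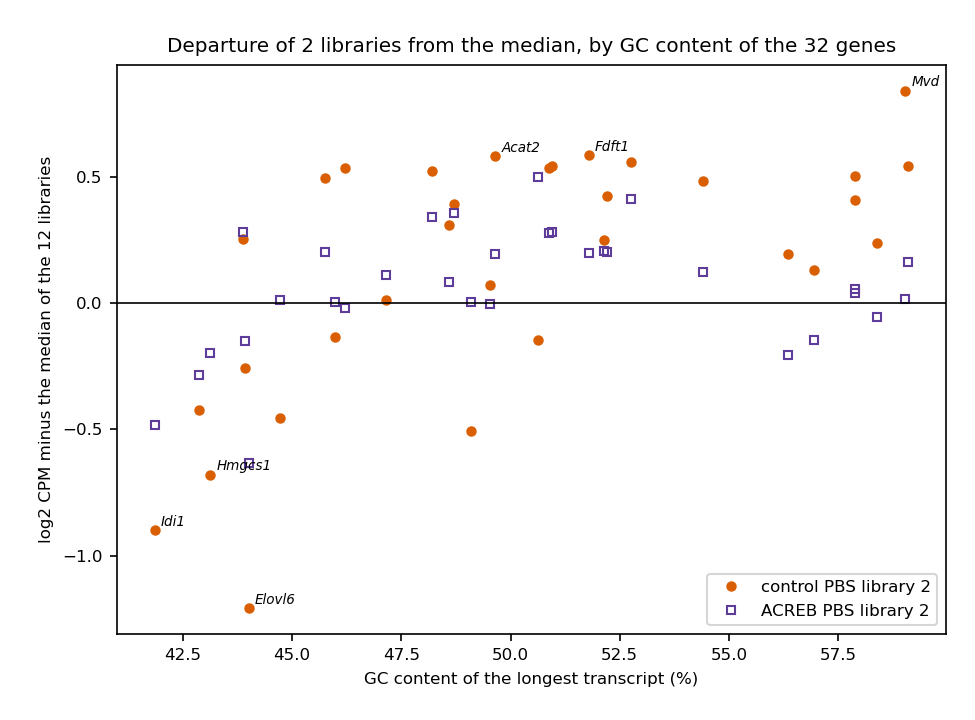
Departure of 2 libraries from the median of the 12 libraries (y axis, log2 CPM) against GC content of the longest transcript (x axis, percent) for each of the 32 genes, with the names of the genes that depart farthest in control PBS library 2. In that library Elovl6, Idi1 and Hmgcs1 lie low at low GC content and Mvd lies highest, with r = 0.62.

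All 32 genes passed the filter on low counts and were tested. Per kilobase of exon, the most abundant in control cultures with PBS was Scd2, a stearoyl-CoA desaturase, at 589.9 ± 33.6 CPM per kb (SD, n = 3). It was followed by Fads2, a desaturase of polyunsaturated fatty acids, at 297 ± 69.8 CPM per kb, and by Hmgcs1, the HMG-CoA synthase, at 117 ± 42.1. Scd1, a second stearoyl-CoA desaturase, measured 108 ± 8.56 CPM per kb, within the spread of Hmgcs1. Fads1 followed with 83.1 ± 16.6 and Insig1 with 64.2 ± 12.1 CPM per kb, and these levels also overlapped within their SD. Among the regulators Srebf2 (44.4 ± 9.05 CPM per kb), Srebf1 (33.2 ± 5.88) and Scap (29.3 ± 6.37) lay in the middle of the order, and Insig2 was lower at 10.7 ± 1.59 CPM per kb. The lowest was Fdps, the farnesyl diphosphate synthase, at 0.446 ± 0.0735 CPM per kb.

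The level of Fdps is uncertain, because 91.4% of its transcript is matched at 95% identity or more by 5 other genes, 4 of them pseudogenes, among which reads could be split or dropped. The same holds in part for Acat2 (65.6% of the transcript), Acaca (64.3%), Fdft1 (54.7%), Idi1 (33.3%), Elovl6 (13.5%) and Scd2 (11.4%, shared with Scd1). In Hmgcs1 (13.3%) and Scap (5.3%) the match is with a gene that overlaps on the opposite strand. Srebf1, Scap, Hmgcs1, Idi1, Fdft1, Lss, Cyp51 and Elovl6 overlap a gene on the opposite strand, and the strand setting of the counting is not given in the sources used here. In whole cultures, fewer cells of a type and less RNA per cell cannot be told apart.

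**Figure D2:**
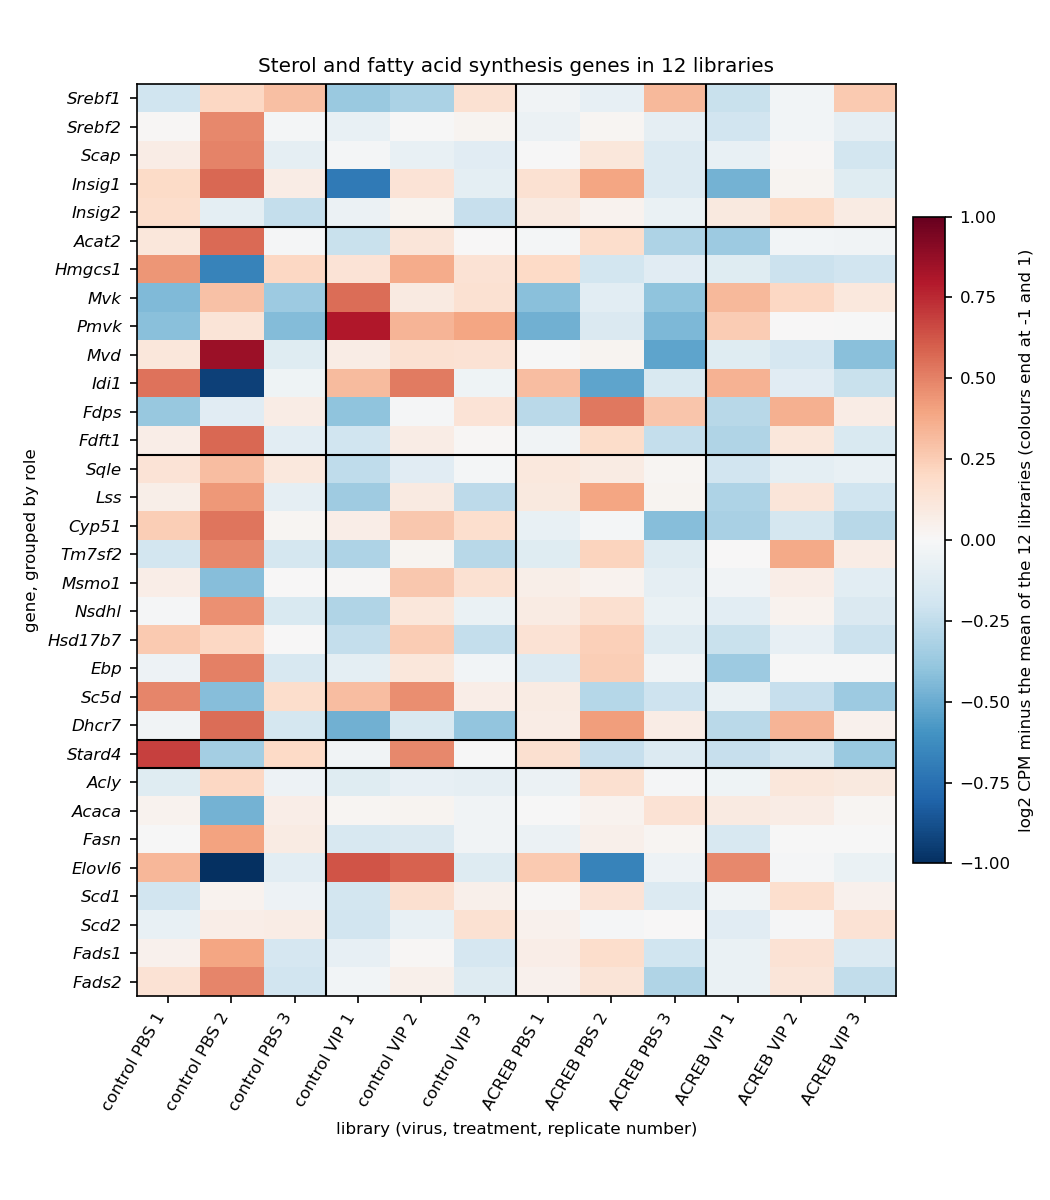
Log2 CPM of the 32 genes minus each gene's mean over the 12 libraries (colour, from -1 in blue to 1 in red), with genes in rows by role and libraries in columns by virus, treatment and replicate number. Control PBS library 2 differs most from its group, with Elovl6 and Idi1 low and Mvd high, and Pmvk is highest in control VIP library 1.

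The promoters of 25 of the 32 genes were found in a RefSeq table for GRCm38.p6 that holds 250 bases before and 50 bases after each gene's start. No window was listed for Fdps, Fdft1, Sqle, Stard4, Scd1, Scd2 and Fads1. Both strands were searched for TCACNCCAC, a form of the sterol regulatory element, for TGACGTCA, the full cAMP response element that CREB binds, for its shorter form TGACG, which lies within it, and for CCAAT, the box bound by NF-Y, a common partner of SREBP. TCACNCCAC was found in 1 of 25 genes (4.0%), against 1.44% of all 27025 genes in the table, and TGACGTCA in 0 of 25, against 2.03%. TGACG was found in 9 of 25 genes (36.0%, against 23.0%) and CCAAT in 20 of 25 (80.0%, against 41.1%). A match in these windows is a description of letters and not of binding. The windows below are shown for Hmgcs1, which holds the TCACNCCAC match, and for Pmvk, Cyp51 and Fasn, which the comparisons name most often. They lie at chr13:119690101-119690400 (plus strand), chr3:89454291-89454590 (plus strand), chr5:4104648-4104947 (minus strand) and chr11:120824498-120824797 (minus strand) and are written 5′ to 3′ along the gene. Capitals mark TCACNCCAC and CCAAT, the latter written ATTGG where it lies on the opposite strand.
Hmgcs1: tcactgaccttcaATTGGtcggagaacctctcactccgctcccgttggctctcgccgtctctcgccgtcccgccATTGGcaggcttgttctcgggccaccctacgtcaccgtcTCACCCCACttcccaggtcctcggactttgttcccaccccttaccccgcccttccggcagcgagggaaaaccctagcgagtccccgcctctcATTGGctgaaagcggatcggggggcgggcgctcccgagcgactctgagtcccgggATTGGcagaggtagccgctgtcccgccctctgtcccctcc
Pmvk: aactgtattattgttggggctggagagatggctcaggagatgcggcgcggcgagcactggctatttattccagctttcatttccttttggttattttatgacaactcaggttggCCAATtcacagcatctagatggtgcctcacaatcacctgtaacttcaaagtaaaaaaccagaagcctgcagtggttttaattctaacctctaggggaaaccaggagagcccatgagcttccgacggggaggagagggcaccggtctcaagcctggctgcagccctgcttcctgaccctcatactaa
Cyp51: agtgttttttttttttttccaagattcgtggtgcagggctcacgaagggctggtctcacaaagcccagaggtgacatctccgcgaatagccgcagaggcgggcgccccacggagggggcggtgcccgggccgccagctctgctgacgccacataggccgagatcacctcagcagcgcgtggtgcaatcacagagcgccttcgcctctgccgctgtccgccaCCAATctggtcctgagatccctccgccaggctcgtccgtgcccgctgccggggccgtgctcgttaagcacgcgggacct
Fasn: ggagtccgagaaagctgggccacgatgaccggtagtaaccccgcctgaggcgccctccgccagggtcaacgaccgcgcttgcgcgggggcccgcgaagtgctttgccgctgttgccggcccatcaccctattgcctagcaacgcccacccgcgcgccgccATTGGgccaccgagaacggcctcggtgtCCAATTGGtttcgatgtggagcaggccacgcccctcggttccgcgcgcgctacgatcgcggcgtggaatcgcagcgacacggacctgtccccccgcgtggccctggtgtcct
The sterol element of Hmgcs1 starts 137 bases before the listed start, and CCAAT occurs 4 times around it. Fasn holds 3 CCAAT matches, 2 of which overlap on opposite strands. TGACG, which is not in capitals, occurs in Cyp51 and, on the opposite strand, in Hmgcs1. Pmvk has another listed start with none of these motifs in its window.

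VIP in cultures with control virus was compared with PBS to ask whether the peptide alters lipid synthesis genes. None of the 32 genes passed edgeR's quasi-likelihood test after Benjamini-Hochberg adjustment (0 of 32 in either direction), where 0.489% of the 16761 genes tested did. At an unadjusted p under 0.05 there were 4 of 32, where 6.42% of all genes lay. Of these 1 was higher (3.28% of all genes) and 3 were lower (3.14%). DESeq2 called 1, Pmvk, where it called 1.43% of all genes. The median log2 fold change of the 32 genes was -0.16, against -0.023 over all genes, and 22 of 32 lay below 0, against 53.2% of all genes. Without control PBS library 2 that median was -0.023, against 0.0020 over all genes, and again 22 of 32 lay below 0. With offsets for GC content and gene length it was -0.094 (edgeR), against -0.026 over all genes, with 26 of 32 below 0. By replicate number, without offsets, the median was -0.16, -0.32 and -0.00028 in pairs 1, 2 and 3, so the lower level was not shared by all pairs.

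The largest difference, with the smallest p of the 32 genes, was in Pmvk (ENSMUSG00000027952, chromosome 3, 89454541 to 89469013, GRCm38), phosphomevalonate kinase, which adds the second phosphate to mevalonate. Pmvk measured 33.9, 49.7 and 33.5 CPM in control PBS libraries 1, 2 and 3 and 79.2, 57.3 and 59.7 CPM in the control VIP libraries. Each VIP library lay above each PBS library, and the gene was higher in 3 of 3 pairs. The means were 39.1 ± 9.24 and 65.4 ± 12.04 CPM (SD, n = 3), a log2 fold change of 0.74 (SE 0.182, adjusted p = 0.147, edgeR). Blocking on the replicate number alone gave an adjusted p of 0.052, and that fit called 0 of 32 genes in any comparison. Over all genes it called 1.63% for VIP with control virus, 0.0776% for VIP with ACREB, 0.221% for ACREB in PBS cultures, 0.364% for ACREB in VIP cultures and 0% for the interaction. Pmvk passed in DESeq2 (log2 fold change 0.76, adjusted p = 0.0099) and in the edgeR fit without control PBS library 2 (0.95, adjusted p = 0.025), the library with the highest Pmvk of its group, where Pmvk was the 1 of 32 called and 0.531% of all genes were. It also passed in edgeR with offsets for GC content and gene length, at 0.93 (adjusted p = 0.014, with 1 of 32 genes called, against 0.901% of all genes). With these offsets and the replicate block together it passed at 0.91 (adjusted p = 0.00099, edgeR). Without control VIP library 1, where Pmvk was highest, it did not pass, at 0.58 (adjusted p = 0.734, edgeR). Leaving out any other single library gave adjusted p from 0.158 to 0.373 (edgeR).

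Mvk, mevalonate kinase, catalyses the step before Pmvk. It measured 25.7, 42.8 and 27.1 CPM in the control PBS libraries and 51.6, 37.2 and 38.9 CPM with VIP. Libraries 1 and 3 were higher with VIP and library 2 was lower, and the groups overlapped. The log2 fold change was 0.42 (SE 0.197, adjusted p = 0.782, edgeR), and 0.69 (adjusted p = 0.115) without control PBS library 2. Mvk passed with the block and the offsets, at 0.58 (adjusted p = 0.022).

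The steps from acetyl-CoA to squalene had no common direction. Of the 8 genes of this role, Mvk and Pmvk included, 3 lay below 0, with a median of 0.11 (4 of 8 and 0.031 without control PBS library 2) and values from -0.27 in Acat2 to Pmvk's 0.74. Hmgcs1 varied widely in control PBS, with 699, 324 and 594 CPM against 566, 668 and 569 with VIP, and its log2 fold change was 0.16 (SE 0.221), turning to -0.11 without control PBS library 2. Idi1, the isopentenyl diphosphate isomerase, measured 66.8, 23.9 and 44.5 CPM in control PBS and 57.1, 65.5 and 44.6 CPM in control VIP. In both genes control PBS library 2 was the lowest of the 12.

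The steps from squalene to cholesterol lay lower with VIP in 8 of 10 genes, with a median log2 fold change of -0.21, but in 6 of 10 with a median of -0.026 when control PBS library 2 was left out. Sqle (ENSMUSG00000022351, chromosome 15, 59315077 to 59331192), squalene epoxidase, makes the first oxygenated intermediate and is a rate-limiting step. It measured 248.9, 281 and 244 CPM with PBS and 189.9, 210.0 and 224 CPM with VIP. The groups did not overlap, and the gene was lower in 3 of 3 pairs. This gave a log2 fold change of -0.31 (SE 0.0991, adjusted p = 0.380, edgeR).

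Dhcr7, which encodes 7-dehydrocholesterol reductase at the end of the pathway, measured 38.5, 58.4 and 34.97 CPM with PBS and 28.2, 35.6 and 30.0 CPM with VIP. It was lower in 3 of 3 pairs, but the groups overlapped. On the log2 scale the difference was -0.49 (SE 0.208, adjusted p = 0.720, edgeR), and -0.23 without control PBS library 2, where it was highest. With the block and the offsets together, Sqle (-0.34, adjusted p = 0.026), Dhcr7 (-0.40, 0.027), the lanosterol synthase gene Lss (-0.43, 0.026) and Hsd17b7 (-0.45, 0.034), a sterol ketoreductase, passed as lower. Under that fit 6 of 32 genes were called, where 3.47% of all genes were, 2 of them higher (2.17% of all genes) and 4 lower (1.29%). Without control PBS library 2 the same fit called 2, Pmvk and Mvk, where 3.21% of all genes were called, and the block alone called the same 2, where 1.82% were.

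All 5 regulators had a log2 fold change below 0 in this contrast, with a median of -0.25, and none passed. Without control PBS library 2 all 5 were still below 0, with a median of -0.067. Insig1, itself an SREBP target and the feedback inhibitor of the pathway, measured 185, 241 and 170.0 CPM with PBS and 98.8, 177 and 151 CPM with VIP. It was lower in each pair, but the groups overlapped through control VIP library 2. Its log2 fold change was -0.48 (SE 0.222, adjusted p = 0.781, edgeR) and ranged over -0.67 to -0.28 when each library was left out. Insig2, whose product has the same function but is less dependent on SREBP, measured 43.1, 35.6 and 32.3 CPM with PBS and 36.6, 38.9 and 32.5 with VIP, a log2 fold change of -0.038 (SE 0.124).

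Srebf2, the gene of the SREBP that mainly serves sterol synthesis, measured 284, 394 and 278 CPM with PBS and 268, 281 and 286 CPM with VIP. Its PBS libraries 1 and 3 lay among the VIP libraries and library 2 lay above them. The log2 fold change was -0.19 (SE 0.129), and -0.016 without that library. Srebf1, whose SREBP-1c product mainly serves fatty acid synthesis, measured 149.6, 199 and 213 CPM with PBS and 133, 138 and 192 CPM with VIP, lower in 3 of 3 pairs with a log2 fold change of -0.28 (SE 0.190). Scap had a log2 fold change of -0.25 (SE 0.140), and -0.064 without control PBS library 2.

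Of the 8 genes of fatty acid synthesis and desaturation 5 lay below 0, with a median of -0.083, against 6 and -0.023 without control PBS library 2. Fasn (ENSMUSG00000025153, chromosome 11, 120805846 to 120824547), fatty acid synthase, measured 429, 571 and 457 CPM with PBS and 387, 391 and 421 CPM with VIP. Each VIP library lay below each PBS library. The log2 fold change was -0.28 (SE 0.116, adjusted p = 0.680, edgeR), and -0.15 without control PBS library 2.

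Scd2 measured 3011, 3324 and 3334 CPM with PBS and 2784, 3008 and 3537 CPM with VIP, with a log2 fold change of -0.052 (SE 0.119). The 2 groups covered much the same range. Acly, the ATP citrate lyase that supplies cytosolic acetyl-CoA, was at -0.11 (SE 0.109) and Acaca, acetyl-CoA carboxylase, at 0.11 (SE 0.131) on the log2 scale, and these became -0.013 and -0.049 without control PBS library 2. Elovl6, an elongase of saturated fatty acids, had the largest value of this role, 0.60 (SE 0.356), which became 0.27 without control PBS library 2. Stard4, a carrier that moves cholesterol between membranes, was at -0.075 (SE 0.227), and -0.30 without that library.

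**Figure D3:**
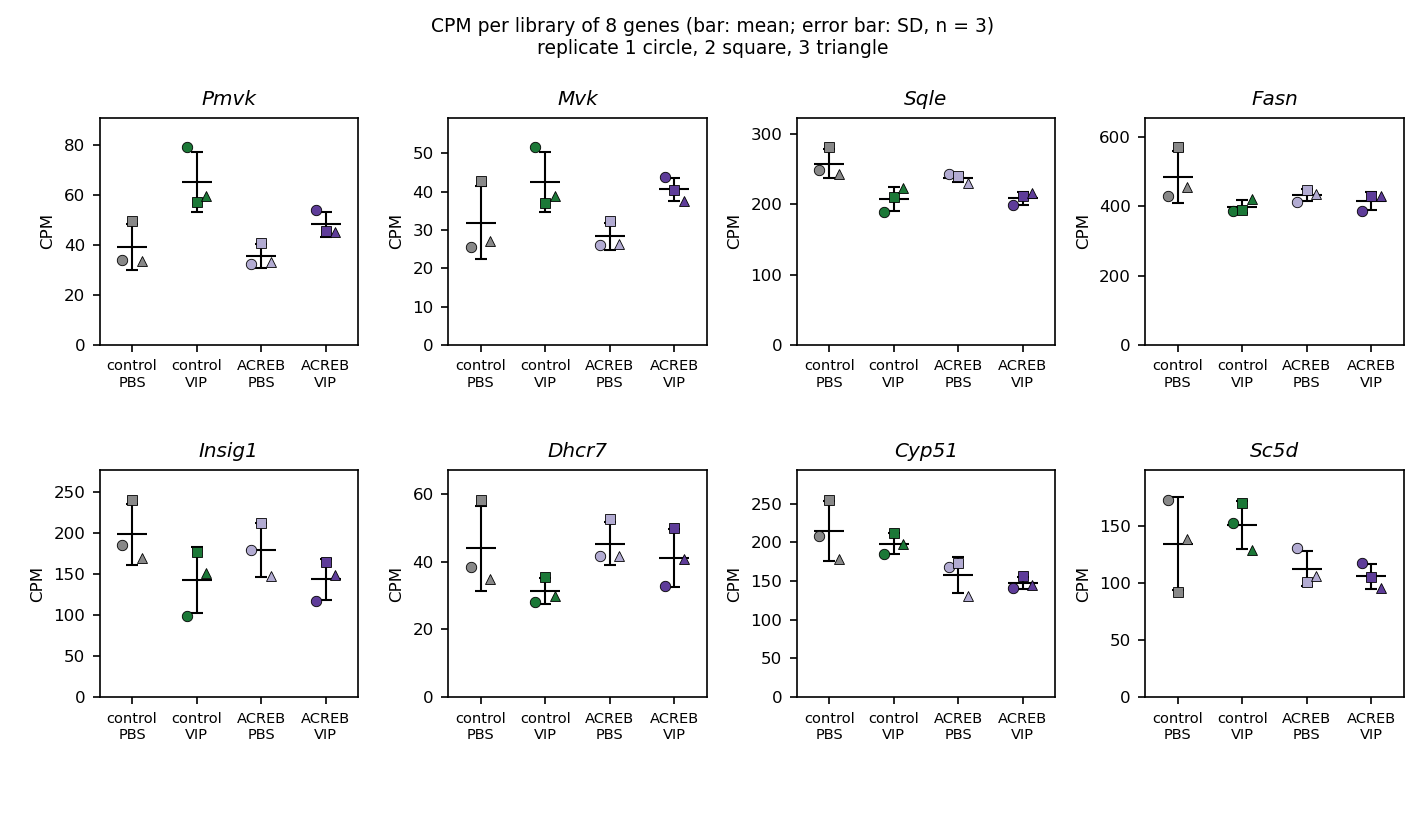
CPM in each library (y axis, starting at 0) of 8 genes in the 4 groups (x axis), with replicate 1 as a circle, 2 as a square and 3 as a triangle, the mean as a bar and the SD (n = 3) as an error bar. Pmvk lies higher and Sqle lower with VIP under both viruses without overlap, and Cyp51 lies lower with ACREB under both treatments without overlap.

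Markers of the oligodendrocyte lineage, cells that also make much cholesterol, moved with the same contrast. Of 14 markers 13 passed the filter, and their summed level was 1379 to 1869 CPM in control PBS and 1227 to 1332 CPM in control VIP, with no overlap. Much of this sum was Olig1, at 589.9 to 1018 CPM in control PBS and 534 to 646 CPM in control VIP, and Olig2, at 180.3 to 298 and 112 to 149.9 CPM. No marker of this list was at 0 in any library. Ependymal markers, 6 of 7 of which passed the filter, summed to 447 to 468 CPM in control PBS and 326 to 429 CPM in control VIP, most of it Foxj1 (375 to 402 and 276 to 357 CPM). Rsph1 of the ependymal list overlapped, at 22.6 to 30.7 CPM in control PBS and 21.7 to 28.6 CPM in control VIP. Whether either list has a part in the sterol gene values of this contrast, where no gene passed in the main fit, was not tested.

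The same VIP treatment with ACREB was examined next. None of the 32 genes passed (0 of 32, edgeR), where 0.0119% of all genes did. At an unadjusted p under 0.05 there were 2 of 32, where 1.92% of all genes lay, both higher (1.28% of all genes). DESeq2 called 0 of 32 and 0.135% of all genes, and the block with the offsets called 0 of 32 and 0.227% of all genes. The median log2 fold change was -0.069, against 0.0020 over all genes, and 23 of 32 genes lay below 0, against 49.3% of all genes. The medians by pair were -0.13, -0.038 and -0.0068.

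The 2 higher genes were the successive kinases Mvk and Pmvk. Mvk measured 26.1, 32.4 and 26.5 CPM in ACREB PBS and 43.8, 40.4 and 37.6 CPM in ACREB VIP, and the groups did not overlap. This gave a log2 fold change of 0.52 (SE 0.198, adjusted p = 1.00, edgeR). Pmvk measured 32.5, 41.0 and 33.3 CPM in ACREB PBS and 54.0, 45.5 and 45.3 CPM in ACREB VIP, again without overlap. On the log2 scale the difference was 0.44 (SE 0.182, adjusted p = 1.00, edgeR). Control PBS library 2 is not part of this contrast, but the filter, scaling, offsets, spread and block are shared by all libraries. With the block and the offsets and without that library, Mvk passed at 0.54 (adjusted p = 0.028, edgeR). It was the 1 of 32 called, where 0.736% of all genes were.

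Sqle measured 244, 241 and 231 CPM in ACREB PBS and 199, 213 and 216 CPM in ACREB VIP, with each VIP library below each PBS library. Its log2 fold change was -0.19 (SE 0.0991, adjusted p = 1.00, edgeR). The steps from squalene to cholesterol lay below 0 in 9 of 10 genes, with a median of -0.14. Lss was at -0.30 (SE 0.177) and lower in 3 of 3 pairs.

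Among the regulators, Insig1 measured 179, 212 and 147 CPM in ACREB PBS and 117, 165 and 148 CPM in ACREB VIP, a log2 fold change of -0.32 (SE 0.222) with overlapping groups. Srebf1 stood at 168, 162 and 216 CPM and then 147, 169 and 206 CPM (-0.063, SE 0.190). Srebf2 stood at 269.8, 285 and 265 CPM and then 247, 277 and 265 CPM (-0.057, SE 0.129). None of these regulators passed, and their groups overlapped. Insig2 stood at 40.6, 39.2 and 36.4 CPM and then 40.8, 43.6 and 40.5 CPM, slightly higher in each pair (0.10, SE 0.124).

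The fatty acid genes lay closest to 0 of the roles, with a median of 5.6e-05 and 4 of 8 below 0. Fasn measured 413, 447 and 436 CPM in ACREB PBS and 386, 430.1 and 431 CPM in ACREB VIP (-0.056, SE 0.116). Scd2 measured 3261, 3156 and 3175 CPM and then 2931, 3147 and 3509.9 CPM (-0.00055, SE 0.119). In both genes the groups overlapped.

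**Figure D4:**
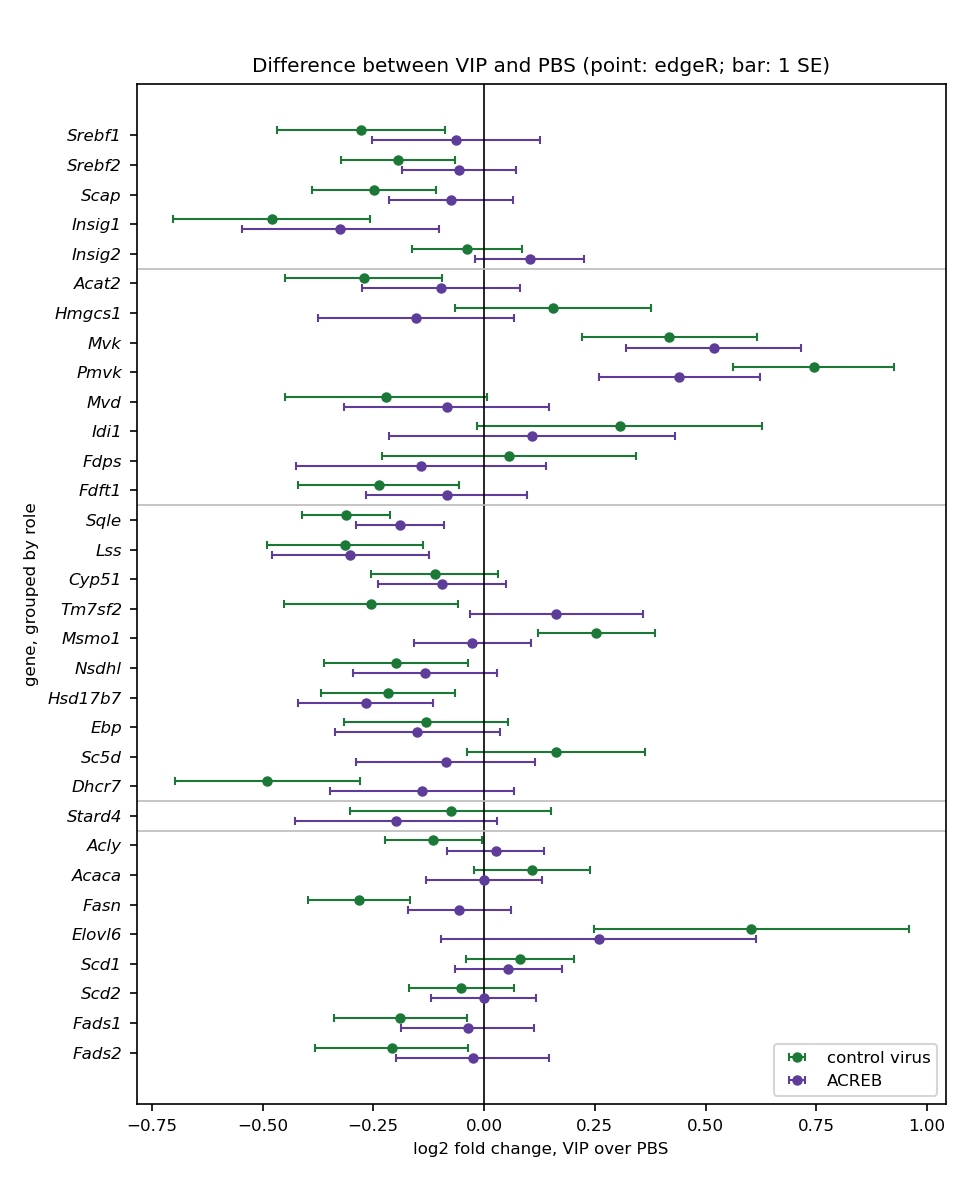
Log2 fold change of VIP over PBS (x axis; points, edgeR; bars, 1 SE) for the 32 genes by role (y axis), with control virus in green and ACREB in purple. Pmvk and Mvk lie above 0 and Insig1, Sqle and Lss below 0 under both viruses; no gene passed at an adjusted p of 0.05.

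Over both viruses, 5 genes were lower with VIP in all 6 numbered pairs (Scap, Sqle, Lss, Dhcr7 and Fasn), where 4.71% of all genes were, and 1 gene was higher in all 6 (Pmvk), where 3.66% were. Non-overlapping libraries were seen with control virus in 2 lower genes (Sqle and Fasn; 5.27% of all genes) and 1 higher (Pmvk; 4.53%). With ACREB they were seen in 1 lower gene (Sqle; 3.26%) and 2 higher (Mvk and Pmvk; 3.45%). The shares among the 32 genes were thus near those of all genes, apart from the 5 that were lower in every pair, a difference that was not tested.

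Whether the VIP response differed between the viruses was tested as an interaction, the log2 change with ACREB minus that with control virus. None of the 32 genes passed (0 of 32, edgeR), and 0% of all genes did. At an unadjusted p under 0.05 there were 0 of 32, against 1.2% of all genes, and DESeq2 and the block with the offsets called 0 of 32 and 0% of all genes. The median was 0.084, against 0.014 over all genes, and 12 of 32 genes lay below 0, against 47.9%. Leaving out control PBS library 2 gave a median of -0.019, and leaving out control VIP library 1 gave -0.026. With offsets for GC content and gene length the median was 0.072 (edgeR), against 0.022 over all genes.

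The 3 genes with the smallest p were Tm7sf2, Msmo1 and Fasn. Tm7sf2, a sterol reductase, measured 23.8, 37.8 and 23.9 CPM in control PBS, 21.8, 27.5 and 22.3 CPM in control VIP, 24.9, 31.6 and 24.6 CPM in ACREB PBS and 27.1, 35.2 and 28.5 CPM in ACREB VIP. It was lower with VIP in 3 of 3 pairs with control virus and higher in 3 of 3 pairs with ACREB, a pattern held by 1.57% of all genes. The interaction was 0.42 (SE 0.277, adjusted p = 1.00, edgeR), and 0.16 without control PBS library 2. Msmo1, a sterol C4-methyl oxidase, measured 193, 137 and 184 CPM in control PBS, 186, 222 and 205 CPM in control VIP, 191, 189 and 172 CPM in ACREB PBS and 179, 192 and 170.5 CPM in ACREB VIP. Control PBS library 2 was the lowest of the 12 and the other libraries overlapped. Its interaction was -0.28 (SE 0.187, adjusted p = 1.00, edgeR), and that of Fasn 0.23 (SE 0.164, adjusted p = 1.00, edgeR). Without control PBS library 2 these were -0.14 and 0.091. For Pmvk, the difference between the VIP responses (ACREB minus control) was -0.30 (SE 0.256, adjusted p = 1.00, edgeR), and -0.52 (adjusted p = 1.00) without control PBS library 2. Neither value passed.

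ACREB was compared with control virus in cultures given PBS, to ask whether blocking CREB alters the resting level of the pathway. None of the 32 genes passed (0 of 32, edgeR), where 0.0358% of all genes did. At an unadjusted p under 0.05 there was 1 of 32, Cyp51, where 5.3% of all genes lay and 2.72% lay on the lower side. DESeq2 called 0 of 32 and 0.515% of all genes. The median was -0.088, against 0.0075 over all genes, with 23 of 32 genes below 0, against 48.8% of all genes. Leaving out control PBS library 2 moved that median to 0.0098, against 0.011 over all genes, with 14 of 32 genes below 0. Leaving out library 3 of that group moved it to -0.19. With offsets for GC content and gene length it was -0.085 (edgeR), against -0.026 over all genes, with 26 of 32 below 0.

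Cyp51 (ENSMUSG00000001467, chromosome 5, 4081145 to 4104746), which encodes the lanosterol demethylase, measured 209, 255 and 179 CPM in control PBS and 168, 174 and 131 CPM in ACREB PBS. Each ACREB library lay below each control library. This gave a log2 fold change of -0.44 (SE 0.144, adjusted p = 0.579, edgeR), and -0.29 without control PBS library 2. It passed with the block and the offsets together, at -0.55 (adjusted p = 0.044).

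Sc5d, a lathosterol desaturase, measured 174, 92.0 and 139 CPM in control PBS and 131, 101 and 107 CPM in ACREB PBS. It was lower with ACREB in pairs 1 and 3 and higher in pair 2. On the log2 scale the difference was -0.26 (SE 0.202, adjusted p = 0.956, edgeR), and -0.46 without control PBS library 2. It was called lower with the block and the offsets, at -0.37 (adjusted p = 0.031). Under that fit 2 of 32 genes were called, where 1.87% of all genes were, both lower (1.22% of all genes). Without control PBS library 2 it called 1, Sc5d, where 1.19% of all genes were called.

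Mvd, the mevalonate diphosphate decarboxylase, measured 21.1, 35.4 and 17.9 CPM in control PBS and 19.5, 19.9 and 13.5 CPM in ACREB PBS. It was lower in 3 of 3 pairs with overlapping groups, and its log2 fold change of -0.49 (SE 0.230, adjusted p = 0.956, edgeR) became -0.14 without control PBS library 2. Srebf2 was next in order of p, at -0.22 (SE 0.129, adjusted p = 0.956, edgeR), and -0.037 without that library. Insig1 was at -0.14 (SE 0.221), Insig2 at 0.067 (SE 0.124), Srebf1 at -0.039 (SE 0.189) and Sqle at -0.12 (SE 0.0990). Fasn was at -0.17 (SE 0.116) and Scd2 at -0.012 (SE 0.119). Without control PBS library 2, Insig1 was at 0.021, Insig2 at 0.044, Srebf1 at 0.012, Sqle at -0.044, Fasn at -0.033 and Scd2 at 0.015.

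With VIP in both groups, ACREB against control virus again gave 0 of 32 genes past the threshold (edgeR), where 0.0537% of all genes passed. At an unadjusted p under 0.05 there were 3 of 32, where 5.69% of all genes lay, all lower (2.82% of all genes). DESeq2 called 0 of 32 and 0.691% of all genes. The median was -0.016, against 0.0020 over all genes, and 17 of 32 genes lay below 0, against 49.6%. When each library was left out the median ran from -0.096, without ACREB VIP library 2, to 0.016, without control VIP library 2.

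Cyp51 measured 185, 212 and 198 CPM in control VIP and 141, 156 and 145 CPM in ACREB VIP, and the groups did not overlap. Its log2 fold change was -0.43 (SE 0.144, adjusted p = 0.597, edgeR), close in size to that with PBS. The contrasts with PBS and with VIP share no library, and Cyp51 was lower with ACREB in 6 of 6 pairs. Same-numbered libraries were correlated across the groups and the same fit gave both values, so these contrasts are not independent.

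Sc5d measured 153, 171 and 129 CPM in control VIP and 118, 105 and 96.1 CPM in ACREB VIP. Each ACREB library lay below each control library. This gave a log2 fold change of -0.51 (SE 0.202, adjusted p = 0.739, edgeR). Pmvk, with the VIP values given above, was lower with ACREB without overlap, at -0.44 (SE 0.181, adjusted p = 0.770, edgeR).

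With the block and the offsets together 4 of 32 genes were called, where 3.53% of all genes were, 2 lower (2.22% of all genes) and 2 higher (1.31%). Sc5d was lower at -0.46 (adjusted p = 0.0076) and Pmvk at -0.51 (0.032). Tm7sf2 was higher at 0.32 (0.037) and Dhcr7 at 0.38 (0.034). Without control PBS library 2 the block alone called 5 genes, where 3.25% of all genes were called, with Sc5d, Cyp51 and Hmgcs1 as lower and Tm7sf2 and Dhcr7 as higher. With the offsets added it called 7, these 5 with Mvd and Pmvk as lower, where 6.65% of all genes were called. Within the steps from squalene to cholesterol the called genes thus lay in both directions.

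In this contrast the libraries did not overlap in 6 lower genes (Hmgcs1, Pmvk, Mvd, Cyp51, Sc5d and Stard4), where 7.06% of all genes were so, and in 2 higher genes (Insig2 and Acly), where 6.97% were. With PBS they did not overlap in 2 lower genes (Sqle and Cyp51; 4.44% of all genes) and in 0 higher genes (4.34%). Over both treatments, 5 genes were lower with ACREB in all 6 pairs (Srebf2, Acat2, Pmvk, Mvd and Cyp51), where 7.76% of all genes were, and 0 were higher, where 8.44% were. Of the 8 genes from acetyl-CoA to squalene, 7 lay below 0 with PBS and 7 with VIP, with medians of -0.15 and -0.18. With PBS, however, 4 of 8 lay below 0 and the median was -0.043 when control PBS library 2 was left out.

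None of the regulators or fatty acid genes passed in this contrast. Insig2 was at 0.21 (SE 0.124), Insig1 at 0.011 (SE 0.222), Srebf1 at 0.18 (SE 0.190) and Srebf2 at -0.083 (SE 0.129). Sqle was at 0.0082 (SE 0.0990), Fasn at 0.057 (SE 0.116) and Scd2 at 0.040 (SE 0.119). Of the fatty acid genes 2 of 8 lay below 0, with a median of 0.052.

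**Figure D5:**
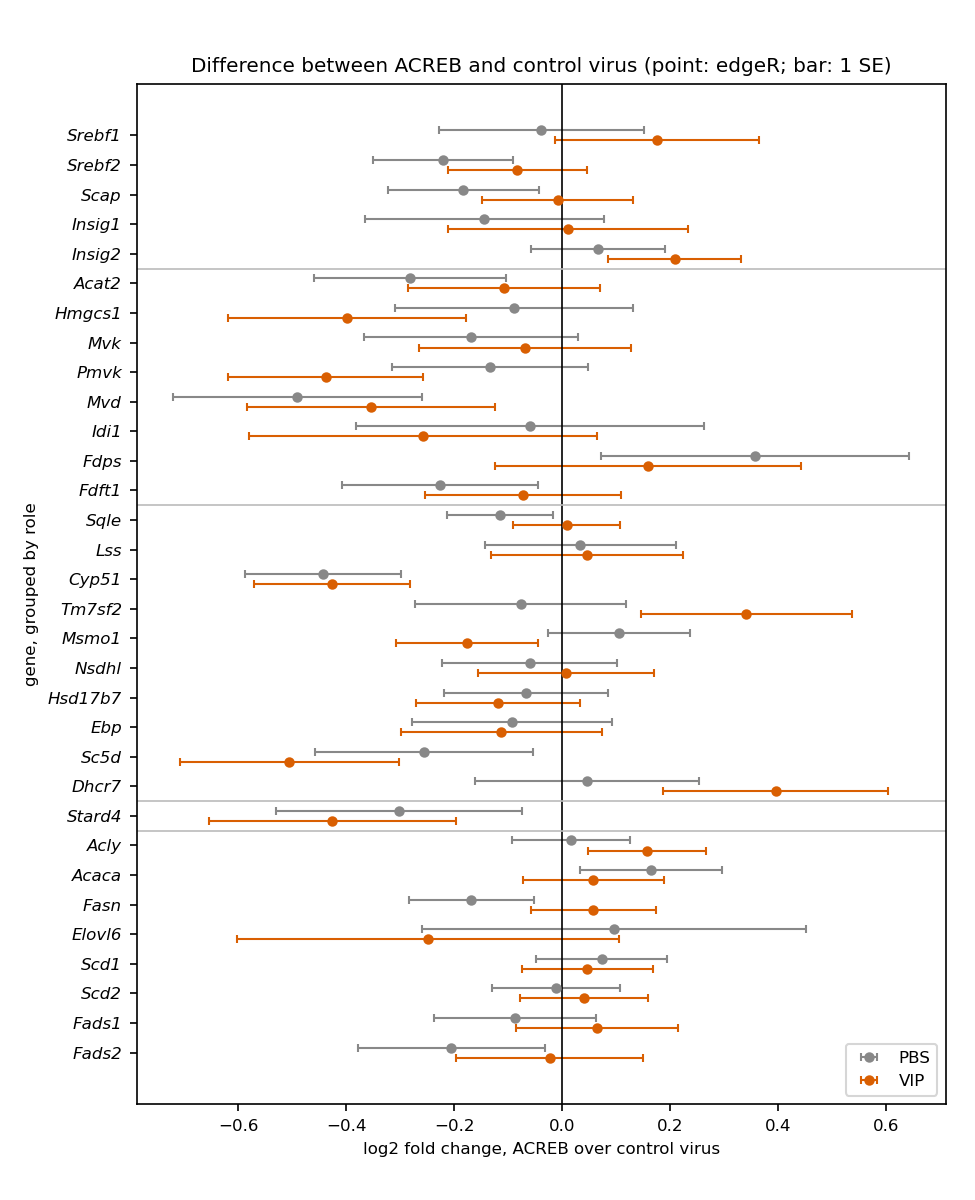
Log2 fold change of ACREB over control virus (x axis; points, edgeR; bars, 1 SE) for the 32 genes by role (y axis), with PBS in grey and VIP in orange. Cyp51 lies at -0.44 and -0.43 in the 2 treatments. The fatty acid genes lie from -0.21 to 0.16 with PBS and from -0.25 to 0.16 with VIP. No gene passed at an adjusted p of 0.05.

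A further 79 lipid genes were listed beside the 32: 10 for SREBP processing and degradation, 12 for side branches of sterol and isoprenoid synthesis, 18 for sterol uptake, transport and efflux, 27 for fatty acid supply, activation and elongation, and 12 for fatty acid oxidation. All 79 were tested, and 0 passed in any of the 5 comparisons (edgeR), where 0.489% of all genes passed for VIP with control virus, 0.0119% for VIP with ACREB, 0.0358% for ACREB in PBS cultures, 0.0537% for ACREB in VIP cultures and 0% for the interaction. Their median log2 fold change for VIP was -0.079 with control virus (-0.023 over all genes) and -0.0094 with ACREB (0.0020). For ACREB it was -0.047 in PBS cultures (0.0075 over all genes) and 0.00076 in VIP cultures (0.0020). DESeq2 called Mid1ip1 lower for VIP with control virus, 1 of 79 where 1.43% of all genes were called, and Dhdds lower for ACREB with VIP, 1 of 79 where 0.691% were.

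For VIP with control virus the smallest p among these genes were those of Mid1ip1, an activator of acetyl-CoA carboxylase, and Elovl7, a fatty acid elongase. Mid1ip1 measured 275, 322 and 264 CPM with PBS and 193, 226 and 224 CPM with VIP, without overlap, at a log2 fold change of -0.42 (SE 0.114, adjusted p = 0.226, edgeR). It overlaps a gene on the opposite strand. Elovl7 measured 9.72, 4.31 and 7.11 CPM with PBS and 17.1, 16.1 and 9.40 CPM with VIP, and the groups overlapped slightly, at 1.01 (SE 0.289, adjusted p = 0.268, edgeR). It passed with the replicate block, at 1.03 (adjusted p = 0.0498). With the block and the offsets Elovl7 and Acsl3, an acyl-CoA synthetase, were called higher, and Gpam, which starts glycerolipid synthesis, and Aacs, the acetoacetyl-CoA synthetase, were called lower. These were 4 of 79 genes under a fit that called 3.47% of all genes.

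For ACREB, Erlin2 and Dhdds were among the 3 genes with the smallest p of the 79 in both treatments. Erlin2, an endoplasmic reticulum protein that takes part in sterol-regulated degradation, measured 328, 305 and 272 CPM in control PBS and 423, 444 and 355 CPM in ACREB PBS. With VIP it measured 326, 333 and 289 CPM with control virus and 425, 437 and 375 CPM with ACREB. The groups did not overlap in either treatment, and the log2 fold changes were 0.43 and 0.38 (adjusted p = 0.380 and 0.505, edgeR). With the replicate block it passed with PBS (adjusted p = 0.047) and not with VIP (0.055).

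Dhdds, a subunit of the enzyme that makes dolichol from isoprenoids, measured 42.6, 49.96 and 44.1 CPM in control PBS and 35.9, 36.5 and 35.7 CPM in ACREB PBS. With VIP it measured 43.4, 45.8 and 48.1 CPM with control virus and 32.1, 33.9 and 37.0 CPM with ACREB, again without overlap. The log2 fold changes were -0.34 with PBS and -0.42 with VIP (adjusted p = 0.504 and 0.290, edgeR), and DESeq2 gave -0.42 with VIP (adjusted p = 0.011). With the block and the offsets, Erlin2 was called higher and Dhdds lower in both treatments, Gpam lower with PBS, and Mylip, a ubiquitin ligase for lipoprotein receptors, higher with VIP. These were 3 of 79 genes in each treatment, where 1.87% of all genes were called with PBS and 3.53% with VIP.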

How the data were processed

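The deposited table holds raw read counts for each Ensembl gene and library. The submitters' processing notes name HTSeq 0.11.2, STAR 2.7.1a, Trimmomatic 0.39, edgeR and R 3.6.1, and the build GRCm38 (mm10); the annotation release is not given in the sources used here. Gene positions come from GENCODE M21. In R 4.3.3, edgeR 4.0.16 kept 16761 genes (filterByExpr), scaled by TMM and fitted the 12 libraries together by quasi-likelihood, with 1 mean for each group (residual degrees of freedom 8). P-values were adjusted by Benjamini-Hochberg over all genes, threshold 0.05. CPM use TMM-adjusted library sizes, and log2 CPM a prior count of 2. The SE is the absolute log2 fold change over the square root of F. Alternatives were DESeq2 1.42.0, other size factors, no filter, leaving out each library, offsets for GC content and length (mgcv 1.9.3) and a block on the replicate number; the 2 blocked fits without control PBS library 2 were added after seeing the data.

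The replicate numbers were taken to pair the samples in the numbered pairs and the blocked fits, but the main fit did not use this pairing. Deviations of same-numbered libraries from their group means correlated in all 18 pairs (r 0.132 to 0.679). When set against libraries of the other groups only, 12 of 12 libraries correlated best with one of their own number. With log2(CPM + 2) the lowest r was 0.0864, and 17 of 18 were over 0.1. Library pairs differed beyond counting noise (chi-square per degree of freedom at least 13.2). The members and lists were chosen with earlier results of these data known. Values are given for each of 7 genes fixed by name (Srebf1, Srebf2, Insig1, Insig2, Sqle, Fasn, Scd2), for the 3 members with the smallest p in each comparison and, among other lipid genes, for a subset of the 2 with the smallest p per list; every other gene given values, such as Hmgcs1, Idi1, Dhcr7, Lss, Scap, Elovl6, Acly, Acaca and Stard4, Mvk in control cultures and Sc5d with PBS, was chosen after its values were seen.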

Additional observations from a re-analysis of the deposited data

Results flagged for a closer look

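Tm7sf2 drew attention because its VIP effect had opposite signs under the 2 viruses in all 3 pairs of each, with an interaction of 0.42 on the log2 scale (VIP effect with ACREB minus VIP effect with control virus). The test of that difference did not pass (edgeR, adjusted p = 1.00), and 1.57% of all genes show such a pattern. Its control PBS library 2 was the highest of the 12 libraries.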

How the results depend on the processing

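The counts of called genes were 0 of 32 in all 5 comparisons under edgeR with TMM, other size factors, no filter on low counts and the replicate block alone. For VIP with control virus the count was 1 under DESeq2 and 1 with GC and length offsets (Pmvk), 0 to 1 when each library was left out (1 without control PBS library 2), 6 with the replicate block and the offsets, 2 with the block and without control PBS library 2, and 2 with the block, the offsets and without that library. For VIP with ACREB it was 1 with the block, the offsets and without that library. For ACREB with PBS it was 2 with the block and the offsets, and 1 with that library also left out. For ACREB with VIP it was 4 with the block and the offsets, 5 with the block and without control PBS library 2, and 7 with both changes. The median log2 fold change ran from -0.24 to -0.023 for VIP with control virus, from -0.19 to 0.0098 for ACREB with PBS and from -0.026 to 0.15 for the interaction when each library was left out. The replicate block changed no call of a member on its own, and no named gene changed sign past a threshold. The cause of the calls gained was not tested. All 32 genes passed the filter on low counts.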
